A study of Arabidopsis thaliana with 28 samples.

Results

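Some genes were expressed in seedlings of one *Arabidopsis thaliana* accession, silent in the other, and expressed again in the silent accession when *DDM1* was mutated. These genes are described here. In the deposited RPM table (RPM is a gene's reads scaled to a common library total, given here as group means of 3 libraries), genes were chosen by the measured levels of the parents: a gene was taken when one WT parent was at or over 2 RPM, the other WT parent at or under 0.4 RPM, and the *ddm1* mutant of that other, silent accession at or over 2 RPM. Of 28437 genes, 51 met these limits: 20 were silent in WT-C24 and released in *ddm1*-C24, and 31 were silent in WT-Col and released in *ddm1*-Col. The same limits on the WT parents alone gave 175 genes silent in WT-C24 and 135 silent in WT-Col, so 155 and 104 silent genes stayed under 2 RPM in the *ddm1* parent (unreleased genes). The name means only a mean under 2 RPM and does not exclude a smaller rise. Among the 155, a silent gene, a gene absent from C24 and reads not placed on the Col genome cannot be told apart. Because the parents' values chose the genes, the difference between the WT parents and the release itself are given as descriptions without a test. The hybrids, and the *ddm1* mutant of the expressed accession, had no part in the choice.

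The mutant genotypes were the parents *ddm1*-Col and *ddm1*-C24 and the homozygous mutant hybrids *ddm1*-ColxC24 and *ddm1*-C24xCol (mother first), and the wild types set against them were the parents WT-Col and WT-C24 and the hybrids WT-ColxC24 and WT-C24xCol. Whole seedlings grown on plates were collected 2 weeks after sowing, with no agent applied, in 3 libraries per genotype (24 in all). Both cross directions together, 6 libraries, are called *ddm1*-F1 or WT-F1. The accessions are Columbia (Col) and C24, natural inbred strains. The labels give no *ddm1* allele for these libraries and no separate parent plants for the replicates, so p-values measure the spread between these libraries. Whole seedlings mix many cell types, and fewer expressing cells and less RNA per cell cannot be told apart.

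DDM1 is an ATP-dependent chromatin remodeler that lets methyltransferases reach DNA packed in heterochromatin, and plants without it lose DNA methylation over transposons, pseudogenes and repeats, many of which are then transcribed. Accessions of one species can carry the same gene in a methylated, silent form and in an unmethylated, active form, called epialleles, and a hybrid inherits one form from each parent. *QQS* (qua-quine starch), an orphan gene that affects leaf starch, and the SADHU elements, short non-autonomous retroposons, are known examples of such variation between accessions. DNA methylation was not analysed here.

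The transcript of *DDM1* itself averaged 2.3 RPM in *ddm1*-Col (1.7 to 2.6) against 9.47 RPM in WT-Col (6.3 to 12.6), a log2 difference of -1.80 ± 0.31 (SE) that passed limma's test (adjusted p = 0.0129). In the libraries labelled *ddm1*-C24 it averaged 11.4 RPM (6.7 to 14.3) against 8.47 RPM in WT-C24 (6.0 to 12.4), with an adjusted p of 0.777. Since the allele is not given, a transcript that was not lower does not check the label. Replicates 1 stood apart from replicates 2 and 3 in many genes, and same-numbered libraries of different genotypes deviated together, so values with the replicate number as a block are given where they change a call. Replicates 2 and 3 of *ddm1*-C24 were the closest of all 276 library pairs (SD of the log2 difference 0.182, against 0.472 for the next pair of one genotype) and were kept as separate samples. The number of *ddm1*-C24 replicate 2 did not match its profile. The light-harvesting gene *LHCB2.1* had 47.7 RPM in it, against 1236.6 to 3185.7 RPM in the other 7 replicates 2 and 24.3 to 63.6 RPM in the 8 replicates 3. The library's deviations from its genotype's mean correlated at a mean r of 0.659 with the replicates 3 of the other genotypes and 0.298 with their replicates 2. Results with *ddm1*-C24 are therefore given also with this library placed in block 3 or averaged with replicate 3. The 4 leaf markers (such as *RBCS1A*) summed to between 19662.0 and 44045.5 RPM in every library.

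The released genes were mostly not ordinary protein-coding genes. The TAIR10.1 annotation calls 13 of the 20 genes silent in WT-C24 (65.0%) and 19 of the 31 genes silent in WT-Col (61.3%) pseudogenes, a class that there includes transposon-derived genes, against 20% and 7.69% of the unreleased genes and 12.5% of all annotated genes of the table. Of the remaining genes, 6 and 12 were protein-coding, and 1 was a 5.8S ribosomal RNA gene, AT3G41979. All 5 chromosomes held genes of both directions. Among the 10 annotated genes on either side, pseudogenes made up a median of 50% for the genes silent in WT-C24 and 25% for those silent in WT-Col, against 5.0% for both unreleased sets and for all genes of the table.

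Some of the genes were neighbours, within 5 annotated genes of each other. In TAIR10.1, AT2G05640 and AT2G05642 were 970 bases apart, AT3G44035 and *SADHU3-1* 2424 bases, AT5G59620 and AT5G59630 827 bases, AT5G35555 and AT5G35575 15425 bases (3 genes between), and these pairs were all silent in WT-Col. AT2G13970 and AT2G13975, 82 bases apart with 1 gene listed between them, and AT3G41979 and AT3G42052, 35578 bases apart with 4 genes between, were silent in WT-C24. One pair of neighbours was silent in different accessions: AT3G44205 (chr3:15913021-15915321, minus strand) was silent in WT-C24 and AT3G44215 (chr3:15919239-15923690, minus strand) was silent in WT-Col, with 3917 bases and 2 annotated genes between them.

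The 200 bases before the annotated start are shown for 5 genes, because CG sites are the main targets of inherited DNA methylation and these genes carry the clearest examples of release and the neighbouring pair. The sequences come from RefSeq's TAIR10.1 genome, which is of Col, and the C24 sequence was not used here. Each is written 5′ to 3′ on the gene's strand, with every CG in capitals.
QQS (chr3:12348847-12349046, plus strand): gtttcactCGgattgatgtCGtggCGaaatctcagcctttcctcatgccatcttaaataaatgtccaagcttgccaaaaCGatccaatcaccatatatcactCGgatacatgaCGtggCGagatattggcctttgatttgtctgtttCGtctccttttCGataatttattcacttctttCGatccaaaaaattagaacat
SADHU1-1 (chr2:4007045-4007244, minus strand): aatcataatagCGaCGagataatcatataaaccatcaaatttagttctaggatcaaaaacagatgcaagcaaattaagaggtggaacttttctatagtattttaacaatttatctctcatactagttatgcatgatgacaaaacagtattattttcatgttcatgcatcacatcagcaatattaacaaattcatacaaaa
AT3G44205 (chr3:15915322-15915521, minus strand): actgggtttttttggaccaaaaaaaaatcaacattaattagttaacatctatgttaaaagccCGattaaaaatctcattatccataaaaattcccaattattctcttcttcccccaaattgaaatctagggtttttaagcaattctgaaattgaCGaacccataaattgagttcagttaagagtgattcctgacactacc
SADHU3-1 (chr3:15814057-15814256, minus strand): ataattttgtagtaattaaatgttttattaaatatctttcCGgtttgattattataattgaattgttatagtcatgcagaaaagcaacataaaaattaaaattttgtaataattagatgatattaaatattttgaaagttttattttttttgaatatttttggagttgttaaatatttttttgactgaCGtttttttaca
AT3G44215 (chr3:15923691-15923890, minus strand): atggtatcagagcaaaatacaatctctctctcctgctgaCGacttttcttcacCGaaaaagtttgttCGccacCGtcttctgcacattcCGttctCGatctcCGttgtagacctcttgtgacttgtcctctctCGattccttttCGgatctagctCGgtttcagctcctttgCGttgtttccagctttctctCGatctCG
The window of *QQS* held 10 CG sites, more than 91.9% of the windows of all genes, and that of AT3G44215 held 13, more than 97.6%. *SADHU1-1*, *SADHU3-1* and AT3G44205 held 2 each, and 16.4% of all windows held fewer. Over the groups the windows did not stand apart: the median was 3.5 CG sites for the genes silent in WT-C24 and 5.0 for those silent in WT-Col, against 4.0 and 6.0 in the unreleased genes and 4.0 over 28330 windows, and 94.3% of these held at least 1 CG (the same letters on both strands).

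As a description of the choice, the released level was near or above that of the expressed parent in some genes and well under it in others. These ratios set reads of one accession against reads of the other, and all were placed on the TAIR10 build, which is of Col. In the genes silent in WT-C24, the mean of *ddm1*-C24 was a median of 0.935 of the mean of the expressed parent WT-Col, with a range of 0.0948 to 5.14, and 7 of 20 were under 0.5. In the genes silent in WT-Col, the mean of *ddm1*-Col was a median of 0.861 of that of WT-C24, with a range of 0.181 to 3.70, and 7 of 31 were under 0.5. Summed over the 20 genes, *ddm1*-C24 held 219.2 to 395.2 RPM against 0.9 to 3.0 RPM in WT-C24. Summed over the 31 genes, *ddm1*-Col held 439.8 to 513.8 RPM against 0.4 to 1.0 RPM in WT-Col. In the silent parent, 7 of 20 and 20 of 31 genes were listed at 0 in all 3 libraries, and the highest single library was at 1.0 RPM (AT1G13609) and 0.2 RPM.

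**Figure D1:**
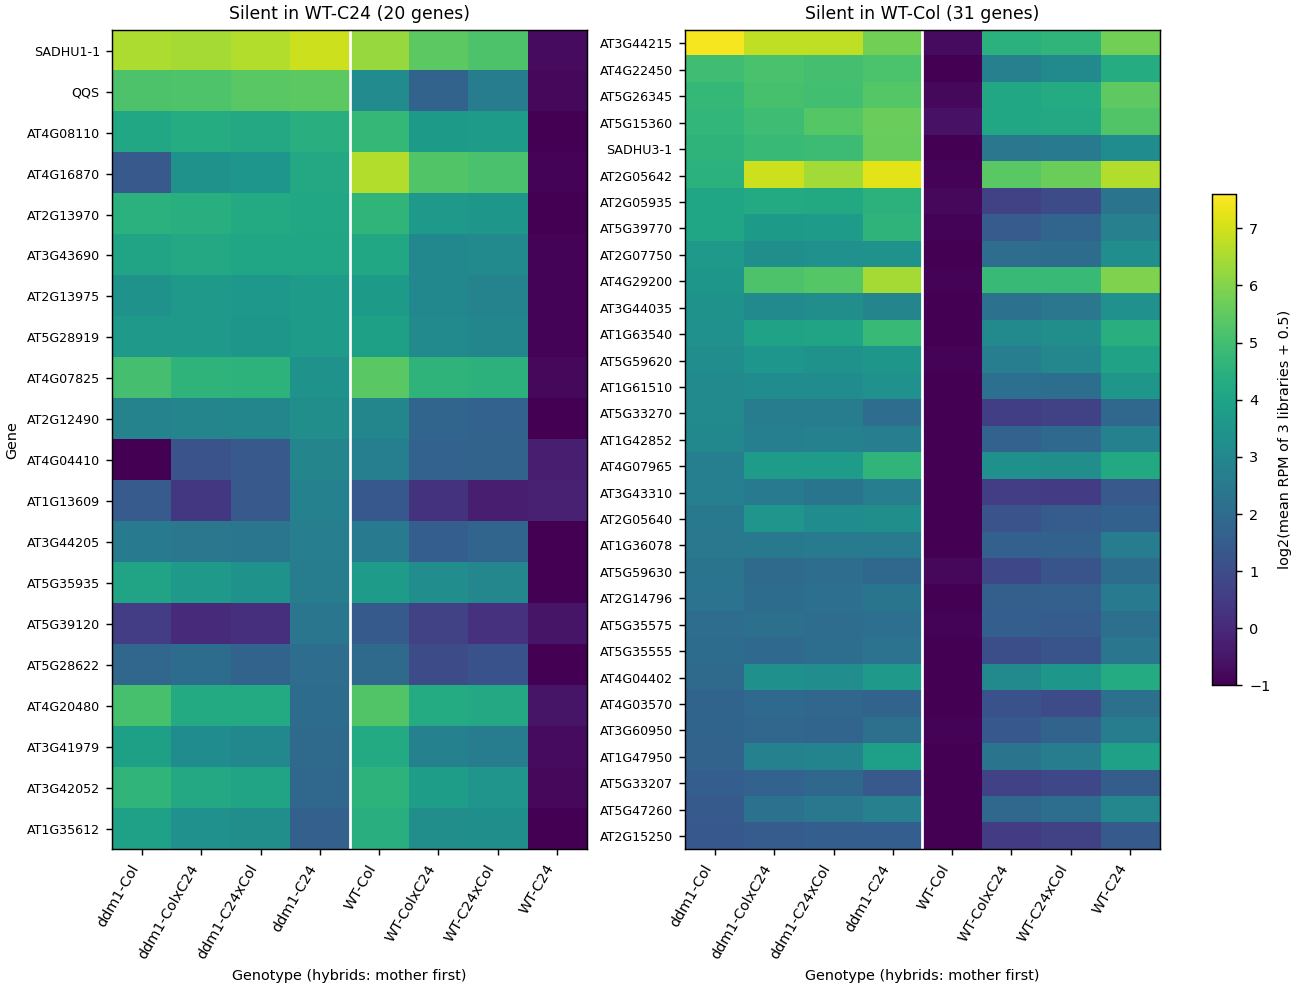
Mean expression, log2(mean RPM of 3 libraries + 0.5), of the 20 genes silent in WT-C24 (left) and the 31 genes silent in WT-Col (right), 1 row per gene, with the 4 *ddm1* genotypes left of the white line and the 4 WT genotypes right of it. Every gene is at or under 0.4 RPM in its silent WT parent, while among the *ddm1* genotypes AT4G04410 in *ddm1*-Col (listed at 0) is the single mean under 0.4 RPM.

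The genes just inside the limits were low. Among genes silent in WT-C24, AT1G13609 and AT5G39120 averaged 2.1 and 2.23 RPM in the expressed parent, while AT5G34800 and AT5G25910 fell outside with 1.9 RPM each. On the silent side, AT1G13609 and AT4G04410 averaged 0.367 and 0.333 RPM in WT-C24, and AT4G15393 and AT5G26622 fell outside with 0.433 and 0.5 RPM. On the release side, AT1G35612 and AT3G42052 averaged 2.63 and 3.13 RPM in *ddm1*-C24, and AT5G33370 and AT2G23330 fell outside with 1.8 and 1.33 RPM. Among genes silent in WT-Col, AT3G43310 and AT2G15250 averaged 2.17 and 2.23 RPM in WT-C24, and AT4G07868 and AT4G10990 fell outside with 1.6 and 1.53 RPM. AT5G15360 and AT3G44215 averaged 0.167 and 0.1 RPM in WT-Col, and AT1G71920 and AT3G42658 fell outside with 0.567 RPM each. AT2G15250 and AT5G47260 averaged 2.1 and 2.23 RPM in *ddm1*-Col, and AT1G35500 and AT2G38195 fell outside with 1.93 and 1.73 RPM.

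Of the genes silent in WT-C24, *QQS* (AT3G30720, chr3:12349047-12349933, plus strand) had the largest hybrid difference. It was measured at 29.6, 46.7 and 53.3 RPM in *ddm1*-C24 and 13.9, 40.4 and 54.9 RPM in *ddm1*-Col, against 0, 0.2 and 0 RPM in WT-C24 and 3.9, 11.2 and 10.1 RPM in WT-Col. The 6 *ddm1*-F1 libraries had 17.5 RPM at the lowest, 40.45 at the median and 58.6 at the highest, against 1.6 RPM at the lowest, 3.45 at the median and 9.2 at the highest in WT-F1. Every *ddm1* library, hybrid or parent, was thus above every WT library, including those of WT-Col in which the gene is active. The log2 difference of *ddm1*-F1 against WT-F1 was 3.16 ± 0.40 (SE) and passed limma's test (adjusted p = 3.82e-05, n = 6 each). Between *ddm1*-Col and WT-Col the log2 difference was 1.97 ± 0.61 (adjusted p = 0.184, and 3.35e-04 with the replicate block). The WT-Col values had part in the choice of the gene.

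The retroposon *SADHU1-1* (AT2G10410) took the most reads of this direction in *ddm1*-C24 (RPM is not scaled to gene length). It was measured at 45.4, 175.1 and 148.1 RPM in *ddm1*-C24 and 33.7, 117 and 125.9 RPM in *ddm1*-Col, against 0.1, 0.1 and 0.1 RPM in WT-C24 and 23.3, 98.2 and 110.6 RPM in WT-Col. The *ddm1*-F1 libraries had 33.3 RPM at the lowest, 114.15 at the median and 134.2 at the highest, and the WT-F1 libraries had 11.8 RPM at the lowest, 49.05 at the median and 62.1 at the highest. Replicate 1 was the low library of every genotype that expressed the gene, so the F1 groups overlapped, while all 6 same-numbered pairs were higher in *ddm1*-F1. The log2 difference was 1.28 ± 0.52 (adjusted p = 0.216 without and 5.72e-09 with the replicate block). An annotated gene on the opposite strand overlaps it, and the strand setting of the counting is not given.

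Further pseudogenes silent in WT-C24 were also higher in the *ddm1* hybrids. AT4G08110 had 16.7, 20.3 and 24 RPM in *ddm1*-C24, 15.9, 16.3 and 19.4 RPM in *ddm1*-Col and 15.3, 18.75 and 21.1 RPM (lowest, median, highest) in *ddm1*-F1, against 0, 0 and 0 RPM in WT-C24, 23.3, 26.2 and 29.3 RPM in WT-Col and 10, 12.45 and 15.6 RPM in WT-F1. AT2G13970 had 13.3, 18.3 and 19.3 RPM in *ddm1*-C24, 20.9, 19.9 and 24.6 RPM in *ddm1*-Col and 16.9, 18.8 and 23.5 RPM in *ddm1*-F1, against 0, 0 and 0 RPM in WT-C24, 21.8, 23.3 and 27.5 RPM in WT-Col and 7.8, 11.95 and 13.9 RPM in WT-F1. Both rose in *ddm1*-F1 against WT-F1, by 0.56 ± 0.13 (adjusted p = 0.0118) and 0.76 ± 0.15 on the log2 scale (adjusted p = 0.00284). AT2G13975, the neighbour of AT2G13970, rose by 0.71 ± 0.17 (adjusted p = 0.0107), and AT2G12490, the third highest positive difference of this direction, by 1.16 ± 0.21 (adjusted p = 0.00123), with 4.5, 7.8 and 8.6 RPM in *ddm1*-F1 and 1.7, 2.7 and 4.1 RPM in WT-F1. In AT2G13970, AT2G13975 and AT2G12490 the 6 *ddm1*-F1 libraries did not overlap the 6 WT-F1 libraries.

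AT4G16870, annotated as a pseudogene, went the other way in the hybrids. It was measured at 10.2, 23.9 and 19.8 RPM in *ddm1*-C24 and 1.8, 2.0 and 2.7 RPM in *ddm1*-Col, against 0.1, 0 and 0 RPM in WT-C24 and 192, 57.6 and 44.8 RPM in WT-Col. So *ddm1* was high where WT was silent and low where WT was high. The *ddm1*-F1 libraries had 6.8 RPM at the lowest, 11.35 at the median and 13.2 at the highest, and the WT-F1 libraries had 13.3 RPM at the lowest, 16.7 at the median and 81.4 at the highest, with *ddm1*-F1 below. The groups did not overlap but nearly met, with 13.2 RPM in the highest *ddm1*-F1 and 13.3 RPM in the lowest WT-F1 library, and replicate 1 was far above the others in each WT genotype that expressed the gene. The log2 difference of *ddm1*-F1 against WT-F1 was -1.35 ± 0.46 (adjusted p = 0.105, and 0.0241 with the block), and that of *ddm1*-Col against WT-Col was -4.92 ± 0.55 (adjusted p = 0.00132). WT-Col replicate 1 was the highest of all libraries at 192.0 RPM, and the WT-Col values had part in the choice of the gene.

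AT4G04410, also a pseudogene, shared that pattern in the parents. It was measured at 3.0, 9.5 and 8.7 RPM in *ddm1*-C24 and was listed at 0 in all 3 libraries of *ddm1*-Col, against 0.2, 0.1 and 0.7 RPM in WT-C24 and 7.7, 6.7 and 3.6 RPM in WT-Col. It fell in *ddm1*-Col relative to WT-Col (adjusted p = 1.94e-04) and was higher in *ddm1*-F1 than in *ddm1*-Col (adjusted p = 0.0141), although the second call was lost when any 1 *ddm1*-Col library was left out. The WT-Col values had part in the choice of the gene, so the fall from WT-Col is not independent of that choice. The *ddm1*-F1 libraries had 0.7, 1.65 and 4.3 RPM (lowest, median, highest) and the WT-F1 libraries 1.5, 2.35 and 4.5 RPM, which overlapped (log2 difference -0.47 ± 0.32, adjusted p = 0.711).

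Besides *QQS*, 5 protein-coding genes were silent in WT-C24. AT4G20480, annotated as a putative endonuclease or glycosyl hydrolase, had 1.9, 4.7 and 4.3 RPM in *ddm1*-C24, 33.5, 31.7 and 34.9 RPM in *ddm1*-Col and 17.3, 18.8 and 20.1 RPM in *ddm1*-F1, against 0.2, 0.1 and 0.3 RPM in WT-C24, 41.9, 33.8 and 39.3 RPM in WT-Col and 16.6, 18.1 and 20.6 RPM in WT-F1. Its release was the smallest in proportion, and the hybrid difference was 0.04 ± 0.09 (adjusted p = 1). AT4G07825, of unknown function, had 14.8, 8.9 and 7.2 RPM in *ddm1*-C24, 52.5, 22.2 and 24.7 RPM in *ddm1*-Col and 15.8, 20.05 and 35 RPM in *ddm1*-F1, against 0.1, 0 and 0.1 RPM in WT-C24, 70.6, 26.2 and 28.8 RPM in WT-Col and 11, 17.05 and 39.2 RPM in WT-F1. Replicate 1 was its highest library in both *ddm1* and WT parents that express it, the F1 groups overlapped, and the hybrid difference was 0.12 ± 0.33 (adjusted p = 1).

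AT5G28919, also of unknown function and overlapped by 2 genes on the opposite strand, had 12, 13.3 and 12.6 RPM in *ddm1*-C24, 17.2, 7.7 and 10.6 RPM in *ddm1*-Col and 8.2, 11.85 and 16 RPM in *ddm1*-F1, against 0, 0 and 0.1 RPM in WT-C24, 21.5, 10 and 11.3 RPM in WT-Col and 4.8, 6.3 and 12.1 RPM in WT-F1. All 6 same-numbered pairs were higher in *ddm1*-F1, by 0.63 ± 0.25 (adjusted p = 0.182 without and 0.00208 with the block).

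The defensin-like gene AT1G13609, a small cysteine-rich secreted peptide of the kind used against microbes, was scattered: 3.6, 8.1 and 7.4 RPM in *ddm1*-C24, 0.9, 1.0 and 5.0 RPM in *ddm1*-Col and 0, 0.6 and 5.2 RPM in *ddm1*-F1, against 0, 0.1 and 1.0 RPM in WT-C24, 0.2, 0.5 and 5.6 RPM in WT-Col and 0, 0.2 and 1.9 RPM in WT-F1. Replicate 3 of WT-Col alone put it over the limit of 2 RPM. The cupin-fold gene AT5G39120 had 4.0, 5.0 and 4.9 RPM in *ddm1*-C24, 1.3, 1.2 and 0.4 RPM in *ddm1*-Col and 0.3, 0.45 and 1.0 RPM in *ddm1*-F1, against 0.2, 0.2 and 0.2 RPM in WT-C24, 4.6, 2.0 and 0.1 RPM in WT-Col and 0.3, 0.8 and 1.5 RPM in WT-F1. In both genes the hybrid groups overlapped, and the differences of 0.67 ± 0.58 and -0.32 ± 0.26 did not pass the test (adjusted p = 0.878 and 0.865).

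Of the genes silent in WT-Col, AT3G44215 took the most reads in *ddm1*-Col, and its released level was above that of the accession that expresses it in WT. It was measured at 220.2, 140.2 and 171.4 RPM in *ddm1*-Col and 51, 52 and 57.6 RPM in *ddm1*-C24, against 0.1, 0.1 and 0.1 RPM in WT-Col and 65.8, 46.9 and 50 RPM in WT-C24. In *ddm1*-F1 it had 91.2 RPM at the lowest, 103.9 at the median and 132.5 at the highest, and the WT-F1 libraries had 15.3 RPM at the lowest, 20.05 at the median and 33.3 at the highest, with no overlap. The log2 difference of the hybrids was 2.25 ± 0.20 (adjusted p = 7.54e-07), and *ddm1*-F1 was above *ddm1*-C24 by 1.00 ± 0.15 (adjusted p = 0.00123). Its neighbour AT3G44205, of the other direction, had 5.7, 6.2 and 5.9 RPM in *ddm1*-C24 and 5.2, 4.9 and 5.8 RPM in *ddm1*-Col, against 0, 0 and 0 RPM in WT-C24 and 4.7, 5.6 and 5.9 RPM in WT-Col, and also rose in *ddm1*-F1 against WT-F1 (log2 difference 0.72 ± 0.18, adjusted p = 0.0171).

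*SADHU3-1* (AT3G44042), the second SADHU retroposon, was measured at 10, 27.4 and 33.1 RPM in *ddm1*-Col and 18.4, 65.6 and 61.5 RPM in *ddm1*-C24, against 0, 0 and 0 RPM in WT-Col and 5.4, 9.0 and 11.5 RPM in WT-C24. In *ddm1*-F1 it had 12.4 RPM at the lowest, 32.95 at the median and 41.6 at the highest, against 3.3 RPM at the lowest, 5.3 at the median and 7.0 at the highest in WT-F1. The groups did not overlap, and the log2 difference was 2.28 ± 0.32 (adjusted p = 1.20e-04). The gene was also higher in *ddm1*-C24 than in WT-C24, where it is active, by 2.28 ± 0.56 (adjusted p = 0.0672, 0.0107 with the block, and 0.00667 with *ddm1*-C24 replicate 2 placed in block 3). This difference did not pass with replicates 2 and 3 averaged, and WT-C24 had part in the choice of the gene. The adjacent AT3G44035 rose in *ddm1*-F1 by 0.86 ± 0.17 (adjusted p = 0.00227).

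AT2G05935 had the largest hybrid difference of all 51 genes. This pseudogene was measured at 12.6, 15.3 and 20.9 RPM in *ddm1*-Col and 14.2, 24.6 and 29.6 RPM in *ddm1*-C24, against 0.1, 0 and 0.1 RPM in WT-Col and 4.7, 4.2 and 4.3 RPM in WT-C24. Hybrids of *ddm1* had 12.9 RPM at the lowest, 19.05 at the median and 23.4 at the highest, against 0.6 RPM at the lowest, 1.25 at the median and 1.9 at the highest in WT-F1, so the groups lay far apart. The log2 difference was 3.41 ± 0.22 (adjusted p = 1.97e-08), and that of *ddm1*-C24 against WT-C24 was 2.19 ± 0.30 (adjusted p = 0.00602). The second call held with *ddm1*-C24 replicate 2 placed in block 3 (adjusted p = 0.0163) and with replicates 2 and 3 averaged. WT-C24 had part in the choice of the gene.

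The pseudogenes AT4G22450 and AT5G26345 followed AT3G44215 in RPM in *ddm1*-Col. AT4G22450 had 23.3, 34.2 and 35.4 RPM in *ddm1*-Col, 23.2, 40.8 and 43.1 RPM in *ddm1*-C24 and 20.7, 37.3 and 44.7 RPM in *ddm1*-F1, against 0, 0 and 0 RPM in WT-Col, 13.4, 16.2 and 28.4 RPM in WT-C24 and 4.0, 5.8 and 12.8 RPM in WT-F1. AT5G26345 had 22.1, 26.7 and 29.5 RPM in *ddm1*-Col, 37.2, 43.3 and 40 RPM in *ddm1*-C24 and 25.8, 34.45 and 37.4 RPM in *ddm1*-F1, against 0, 0.1 and 0.1 RPM in WT-Col, 45, 41.2 and 43.8 RPM in WT-C24 and 15.3, 18 and 20 RPM in WT-F1. Neither gene's F1 groups overlapped, and the differences were 2.24 ± 0.28 (adjusted p = 3.45e-05) and 0.83 ± 0.12 (adjusted p = 1.21e-04). Near-identical copies elsewhere in the genome cover 93.7% of AT4G22450, so its values may include reads of those copies.

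**Figure D2:**
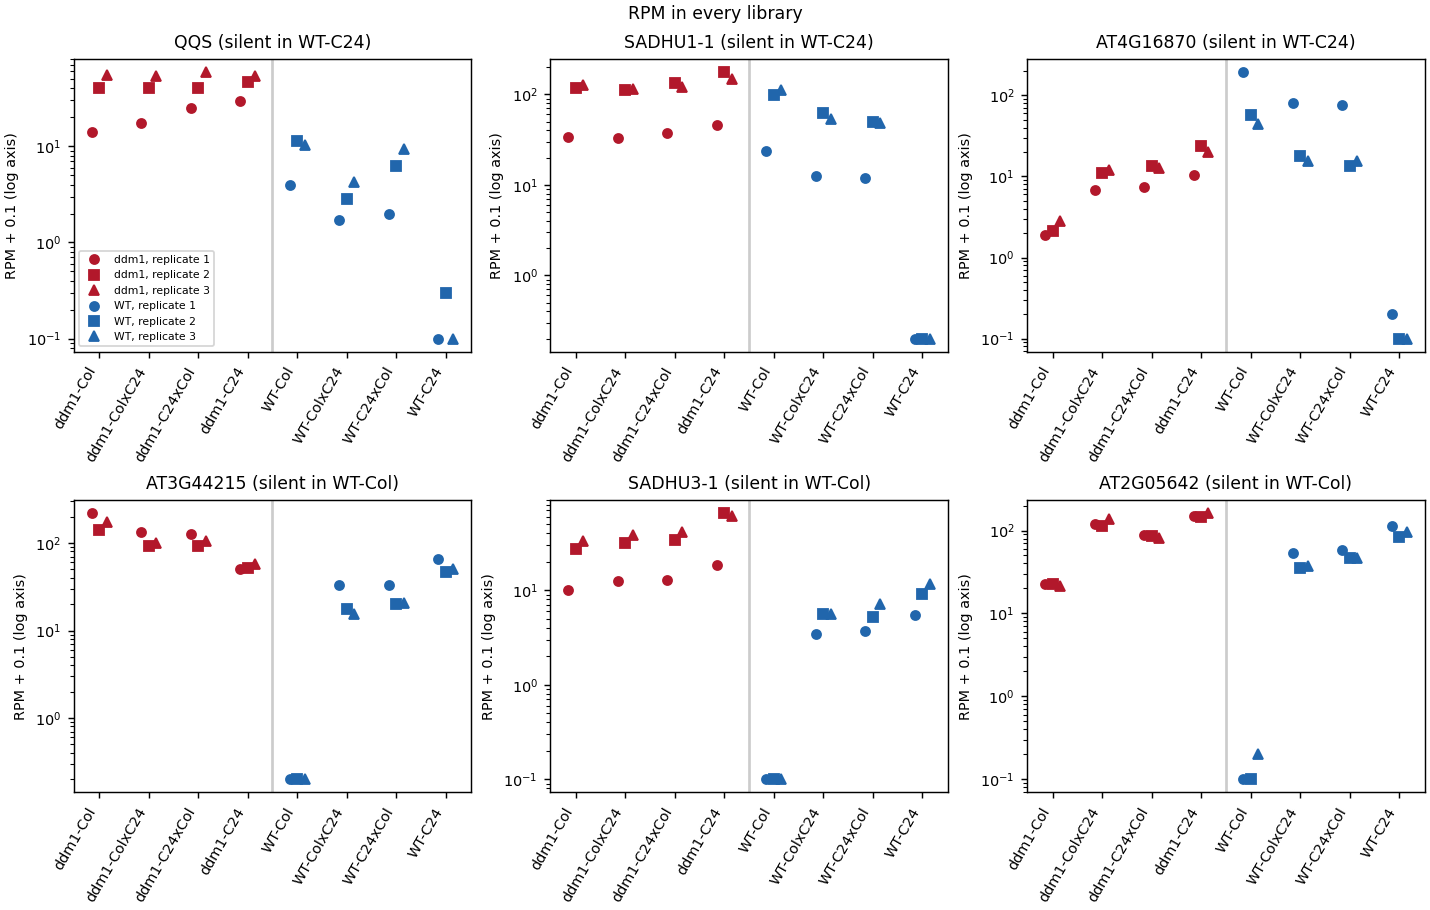
RPM + 0.1 on a log axis in each of the 24 libraries for *QQS*, *SADHU1-1*, AT4G16870, AT3G44215, *SADHU3-1* and AT2G05642, with *ddm1* genotypes left of WT genotypes and 1 symbol per replicate number. In WT the silent parent lies at the bottom and the hybrids between the parents, whereas in *ddm1* no genotype is silent, and AT4G16870 is lowest in *ddm1*-Col among the mutants (1.8, 2.0 and 2.7 RPM).

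Among the protein-coding genes silent in WT-Col, AT2G05642, annotated as an OB-fold-like nucleic acid-binding protein, had the highest RPM in the hybrids. It was measured at 22.8, 22.8 and 21.2 RPM in *ddm1*-Col and 148.3, 145.9 and 162.6 RPM in *ddm1*-C24, against 0, 0 and 0.1 RPM in WT-Col and 113.1, 83 and 95.5 RPM in WT-C24. Hybrids of *ddm1* had 81.5 RPM at the lowest, 101.45 at the median and 135.7 at the highest, against 34.9 RPM at the lowest, 46.35 at the median and 57.5 at the highest in WT-F1. Release in *ddm1*-Col was partial, yet the F1 groups did not overlap and the difference of 1.17 ± 0.16 passed the test (adjusted p = 1.09e-04). Its neighbour AT2G05640, a pseudogene, rose by 2.02 ± 0.22 in the hybrids (adjusted p = 9.28e-06) and by 1.64 ± 0.28 in *ddm1*-C24 against WT-C24 (adjusted p = 0.0148).

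AT5G39770, listed as protein-coding and as a type II restriction endonuclease-like protein, is called a non-functional pseudogene in its annotation note. A gene on the opposite strand overlaps it. AT5G39770 was measured at 22.5, 10.3 and 15.5 RPM in *ddm1*-Col and 26.6, 22.3 and 21.5 RPM in *ddm1*-C24, against 0, 0 and 0.1 RPM in WT-Col and 3.5, 6.9 and 8.0 RPM in WT-C24. The *ddm1*-F1 libraries had 9.4, 12.85 and 16.1 RPM (lowest, median, highest), against 1.3, 2.75 and 4.3 RPM in WT-F1, with no overlap. It rose in the hybrids by 2.15 ± 0.24 (adjusted p = 1.14e-05), and also in *ddm1*-C24 against WT-C24 by 1.92 ± 0.32 (adjusted p = 0.0149). The second call held with *ddm1*-C24 replicate 2 placed in block 3 (adjusted p = 0.0298). With replicates 2 and 3 averaged that call was lost, and WT-C24 had part in the choice of the gene. AT2G07750, a DEAD/H-box RNA helicase of the family that unwinds RNA, had 9.2, 11.3 and 15.6 RPM in *ddm1*-Col, 6.7, 11.4 and 11.4 RPM in *ddm1*-C24 and 4.8, 9.5 and 13.4 RPM in *ddm1*-F1, against 0, 0 and 0 RPM in WT-Col, 7.3, 5.4 and 13.8 RPM in WT-C24 and 2.4, 3.1 and 6.1 RPM in WT-F1. Its F1 groups overlapped, and it rose by 1.26 ± 0.28 (adjusted p = 0.00619).

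The beta-galactosidase related gene AT4G29200 was released only in part: it had 12.1, 9.4 and 12 RPM in *ddm1*-Col, 62.2, 94.6 and 100.9 RPM in *ddm1*-C24 and 28.7, 35.8 and 49.2 RPM in *ddm1*-F1, against 0, 0.1 and 0 RPM in WT-Col, 49.1, 50.9 and 80.5 RPM in WT-C24 and 19.1, 26.6 and 36.4 RPM in WT-F1. AT1G63540, of the hydroxyproline-rich glycoproteins found in cell walls, had 15.9, 5.7 and 7.3 RPM in *ddm1*-Col, 45.1, 19.4 and 18.3 RPM in *ddm1*-C24 and 9.6, 10.8 and 25.8 RPM in *ddm1*-F1, against 0, 0 and 0 RPM in WT-Col, 33.1, 15 and 14.4 RPM in WT-C24 and 4.8, 6.15 and 14.8 RPM in WT-F1. In both the F1 groups overlapped and all 6 same-numbered pairs were higher in *ddm1*-F1. Their hybrid differences were 0.47 ± 0.19 and 0.84 ± 0.36, which passed only with the block (adjusted p = 1.97e-04 and 1.50e-06, against 0.191 and 0.262 without it).

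Further protein-coding genes had no known function. AT5G15360, the protein-coding gene with the highest RPM in *ddm1*-Col, had 14.6, 31.2 and 30.6 RPM there, 27.9, 61.4 and 57.7 RPM in *ddm1*-C24 and 15.5, 37.35 and 49.7 RPM in *ddm1*-F1, against 0.2, 0.2 and 0.1 RPM in WT-Col, 19.9, 48.4 and 45.8 RPM in WT-C24 and 7.3, 20.3 and 24.9 RPM in WT-F1. AT4G07965 had 4.9, 5.7 and 7.6 RPM in *ddm1*-Col, 14.6, 30.7 and 27.8 RPM in *ddm1*-C24 and 8.1, 14 and 16 RPM in *ddm1*-F1, against 0, 0 and 0 RPM in WT-Col, 15, 17.3 and 22.9 RPM in WT-C24 and 5.1, 9.1 and 13.5 RPM in WT-F1. AT1G36078 had 1.6, 6.6 and 6.7 RPM in *ddm1*-Col, 1.5, 7.5 and 7.1 RPM in *ddm1*-C24 and 1.6, 6.5 and 7.1 RPM in *ddm1*-F1, against 0, 0 and 0 RPM in WT-Col, 1.5, 8.1 and 7.7 RPM in WT-C24 and 0.7, 3.3 and 4.0 RPM in WT-F1. Their F1 groups overlapped, all 6 same-numbered pairs were higher in *ddm1*-F1, and the differences of 0.99 ± 0.35, 0.47 ± 0.26 and 0.87 ± 0.41 passed only with the block (adjusted p = 1.09e-05, 0.00515 and 1.00e-04).

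The smallest hybrid differences of this direction belonged to AT4G04402, AT3G60950 and AT1G47950. AT4G04402, annotated as a two-component phosphorelay mediator, a class of proteins that pass phosphate from receptor kinases to response regulators, had 1.2, 3.9 and 5.2 RPM in *ddm1*-Col, 4.4, 15.6 and 16.1 RPM in *ddm1*-C24 and 2.7, 11.15 and 14.5 RPM in *ddm1*-F1, against 0, 0 and 0 RPM in WT-Col, 8.4, 20.4 and 28.1 RPM in WT-C24 and 2.9, 10.25 and 17.3 RPM in WT-F1. Its log2 difference of -0.10 ± 0.49 and those of AT3G60950 (0.14 ± 0.35) and AT1G47950 (0.34 ± 0.22) passed in neither fit (adjusted p = 1, 1 and 0.688). In *ddm1*-F1, AT3G60950 had 0.8, 3.65 and 4.6 RPM and AT1G47950 3.8, 5.8 and 9.5 RPM, against 1.1, 2.6 and 3.2 RPM and 3.7, 4.8 and 6.8 RPM in WT-F1, and both overlapped. AT3G60950, a C2-domain gene, is wholly covered by a near-identical copy. The putative disease resistance gene AT5G47260, the only such gene among the 51, had 2.5, 4.8 and 7.2 RPM in *ddm1*-F1 against 1.7, 3.85 and 5.5 RPM in WT-F1 (log2 difference 0.35 ± 0.30, adjusted p = 0.879 without and 0.0138 with the block).

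The other 6 genes silent in WT-C24 averaged 2.63 to 16.6 RPM in *ddm1*-C24, against 0.4 RPM or less in WT-C24. Of these, AT3G43690 (1.12 ± 0.18) and AT5G28622 (0.80 ± 0.20) rose in *ddm1*-F1 against WT-F1 on the log2 scale, with adjusted p of 0.0179 or less. With the replicate block AT3G42052 (0.46 ± 0.12) and AT5G35935 (0.47 ± 0.14) passed as well. In neither fit did AT1G35612 (0.01 ± 0.14) and AT3G41979 (0.23 ± 0.71) pass. AT3G41979, the ribosomal RNA gene, had 8.2, 0.9 and 1.1 RPM in *ddm1*-C24, so replicate 1 alone put it over the limit of 2 RPM. In WT-Col it had 45.6, 4.1 and 5.8 RPM. The other 12 genes silent in WT-Col averaged 2.1 to 8.8 RPM in *ddm1*-Col, against 0.4 RPM or less in WT-Col. Of these, AT1G61510 (1.04 ± 0.11), AT2G15250 (0.89 ± 0.18), AT3G43310 (1.87 ± 0.26), AT5G33207 (1.03 ± 0.13), AT5G33270 (2.00 ± 0.22), AT5G35555 (0.87 ± 0.19) and AT5G59620 (0.61 ± 0.17) rose in *ddm1*-F1 against WT-F1 on the log2 scale, with adjusted p of 0.0302 or less. With the replicate block AT1G42852 (0.91 ± 0.09), AT2G14796 (0.44 ± 0.10), AT4G03570 (0.87 ± 0.12), AT5G35575 (0.63 ± 0.12) and AT5G59630 (0.88 ± 0.15) passed as well.

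The question put to the WT hybrids was where they lie between an expressing and a silent parent. A gene silent in one parent has a mid-parent value (MPV) close to 0.5 of the expressed parent. In the genes silent in WT-C24, WT-F1 was at a median of 0.474 of WT-Col (0.246 to 0.630), and 15 of 20 lay between 0.4 and 0.6. In the genes silent in WT-Col, WT-F1 was at a median of 0.444 of WT-C24 (0.292 to 0.772), and 23 of 31 lay between 0.4 and 0.6. No released gene was above its expressed parent in WT-F1, and of the unreleased genes 1 of 155 and 0 of 104 were. The expressed parent had to be at or over 2 RPM for a gene to be chosen, so these ratios are a description. The unreleased genes had medians of 0.523 (silent in WT-C24) and 0.315 (silent in WT-Col), and 120 of 155 and 38 of 104 lay between 0.4 and 0.6. In the hybrids, 4 seed markers (such as the storage protein gene *CRU3*) summed to 1.0 to 3.3 RPM in *ddm1*-ColxC24, 32.3 to 159.0 in *ddm1*-C24xCol, 2.8 to 140.4 in WT-ColxC24 and 135.3 to 624.7 in WT-C24xCol, and in the parents to 138.1 to 386.2 in *ddm1*-C24, 2.9 to 50.7 in *ddm1*-Col, 579.2 to 1907.0 in WT-C24 and 9.3 to 14.9 in WT-Col. The part of this difference in the medians of the unreleased genes was not tested.

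Many of the released genes were higher in the *ddm1* hybrids than in the WT hybrids. All 51 genes passed the filter on low values, and the 22329 genes that passed it were tested together. Of the 20 genes silent in WT-C24, 8 rose in *ddm1*-F1 against WT-F1 and 0 fell (limma, adjusted p under 0.05), where 9.23% of all tested genes rose and 1.18% fell, and 13 of the 20 were under an unadjusted p of 0.05 (12 higher, and AT4G16870 lower), as were 14.9% of all tested genes in either direction. Of the 31 genes silent in WT-Col, 17 rose and 0 fell, and 24, all higher, were under an unadjusted p of 0.05. With the replicate block 12 of 20 rose and 1 fell (AT4G16870), and 28 of 31 rose, where 13.5% of all tested genes rose and 11.5% fell. The median log2 difference was 0.60 (-1.35 to 3.16) and 0.88 (-0.10 to 3.41), against -0.03 over all tested genes, and 17 of 20 and 30 of 31 were above 0. The 3 flower and pollen markers summed to 7.8 to 16.0 RPM in *ddm1*-ColxC24 and 6.1 to 10.7 RPM in *ddm1*-C24xCol, against 2.1 to 3.9 RPM in WT-ColxC24 and 3.3 to 4.7 RPM in WT-C24xCol, so the *ddm1* and WT hybrids did not overlap. *SEP3* made up nearly all of it, while *AP3* and *AG* were at or under 0.7 RPM in every library. In the parents they summed to 7.8 to 14.7 RPM in *ddm1*-Col and 6.7 to 9.3 RPM in *ddm1*-C24, against 2.6 to 6.4 RPM in WT-Col and 3.3 to 5.6 RPM in WT-C24. Their part in the result was not tested.

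Of the 155 unreleased genes silent in WT-C24, 4 rose and 10 fell in *ddm1*-F1 against WT-F1, with a median log2 difference of -0.14, and with the block 8 rose and 44 fell. Of the 104 silent in WT-Col, 1 rose and 4 fell, with a median of -0.35, and with the block 4 rose and 12 fell. Within each cross, the seed marker sums given above ranged lower in the *ddm1* than in the WT hybrids, with overlap. Their part in these counts was not tested. In ratios of mean RPM, *ddm1*-F1 was at a median of 1.5 and 2.03 of WT-F1 in the released genes and at 0.878 and 0.601 in the unreleased genes. No test of these sets against each other was made.

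The 6 *ddm1*-F1 libraries were all above the 6 WT-F1 libraries in 5 of the 20 genes silent in WT-C24 and in 13 of the 31 genes silent in WT-Col, where 8.68% of all tested genes showed this. They were all below in 1 of 20 (AT4G16870) and 0 of 31, where 0.918% of all tested genes did. Comparing same-numbered libraries of the same cross, *ddm1* was higher in 94 of 120 pairs and in 178 of 186 pairs, and in all 6 pairs of 11 and 27 genes. These totals add up the same 6 pairs of libraries over the genes, so they are not counts of independent pairs. Over all tested genes 45.9% of pairs were higher in *ddm1*, and 12.7% of genes were higher in all 6 pairs.

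**Figure D3:**
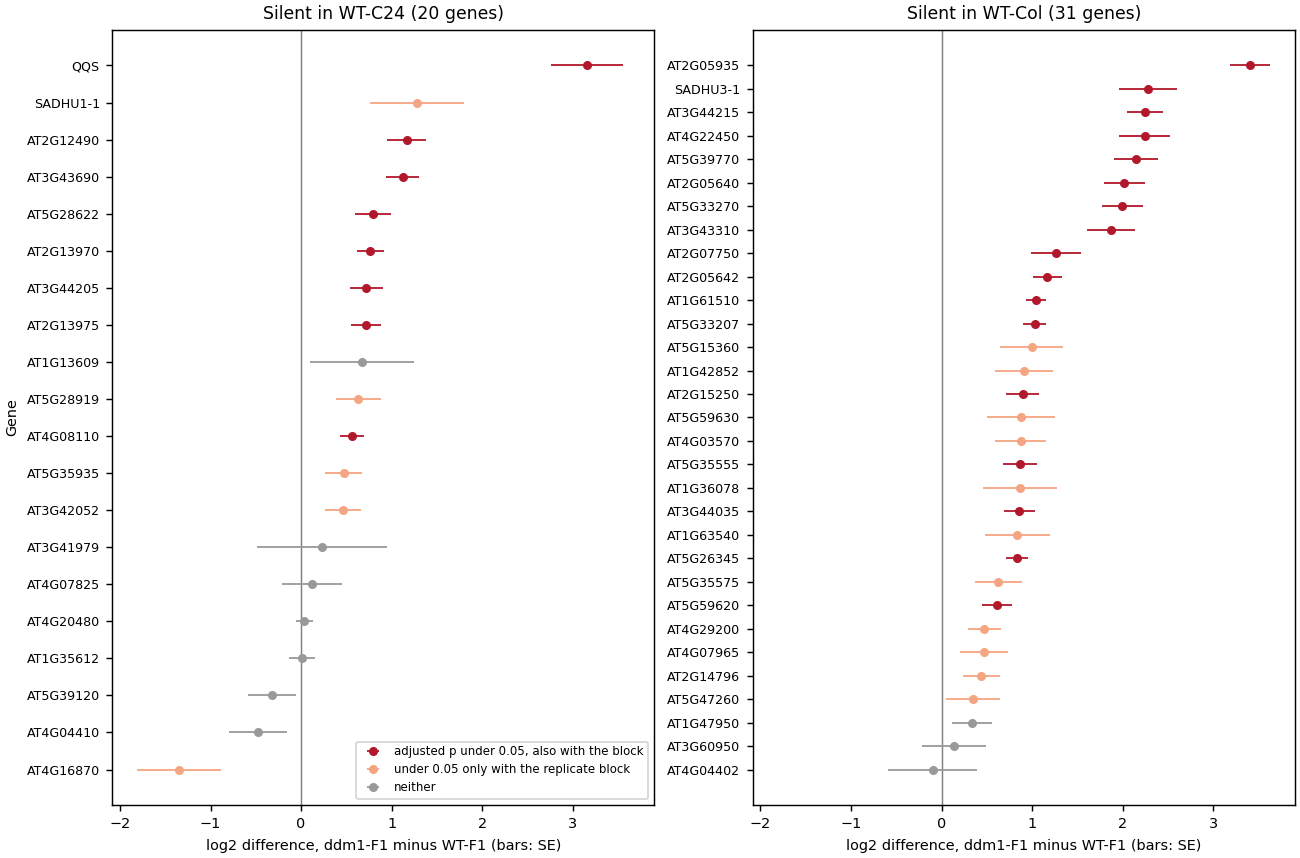
Log2 difference of *ddm1*-F1 against WT-F1 with its SE (limma, 6 libraries each) for the 20 genes silent in WT-C24 (left) and the 31 silent in WT-Col (right), coloured by whether the adjusted p was under 0.05 without the block as well, only with the replicate block, or in neither fit. In the right panel 30 of 31 points lie above 0, and *QQS* and AT2G05935 lead the panels with 3.16 and 3.41.

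As a description only, the hybrid differences were also read by how far a gene was released in the parent, a share made of values that the choice used. Of the genes silent in WT-C24, the 7 whose *ddm1*-C24 mean was under 0.5 of WT-Col had a median hybrid log2 difference of 0.12 (-1.35 to 0.47), and the other 13 a median of 0.72 (-0.47 to 3.16). Of the genes silent in WT-Col, the 7 under 0.5 had a median of 0.47 (-0.10 to 1.17), and the other 24 a median of 0.95 (0.14 to 3.41). The WT level enters the denominator of both measures, and no test was made.

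The *ddm1* hybrids were set against the mean of their *ddm1* parents. One of these parents had to be at or over 2 RPM for a gene to be chosen, so the ratios are a description. *ddm1*-F1 was at a median of 0.992 of the *ddm1* MPV in the genes silent in WT-C24 (0.208 to 1.22) and 0.943 in those silent in WT-Col (0.646 to 1.34). The 3 lowest were AT5G39120 (0.208), AT1G13609 (0.338), AT4G04410 (0.557). AT5G39120, AT1G13609 and AT4G04410 were among the genes nearest the limits given above. For the unreleased genes these medians were 1.05 and 0.591.

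**Figure D4:**
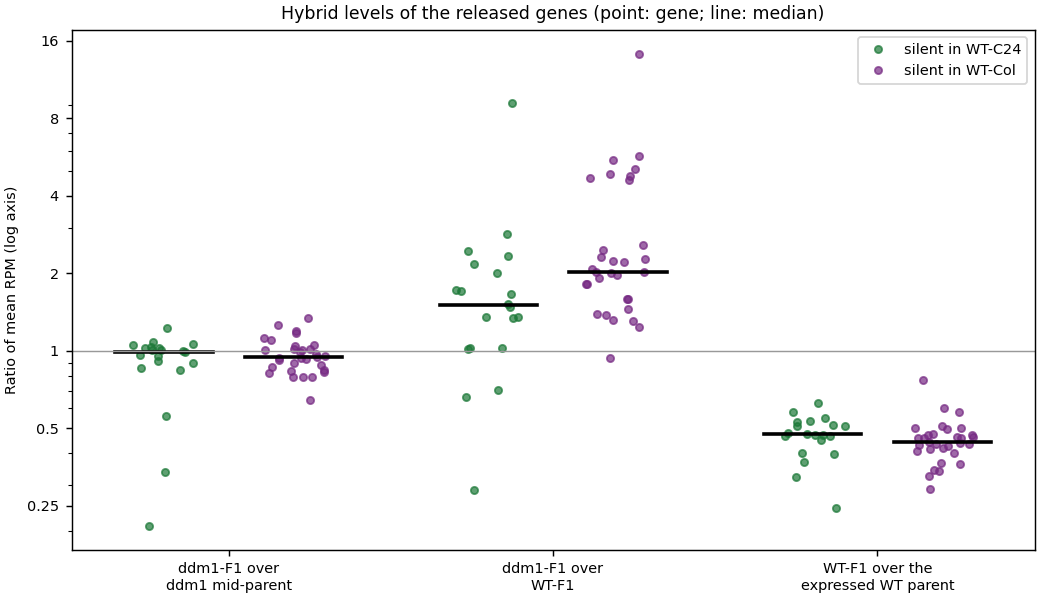
Ratios of mean RPM on a log axis for each released gene (points) with the median of each direction (lines): *ddm1*-F1 over the mean of the *ddm1* parents, *ddm1*-F1 over WT-F1, and WT-F1 over the expressed WT parent. The medians sit near 1 (0.992 and 0.943), above 1 (1.5 and 2.03) and near 0.5 (0.474 and 0.444).

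A further comparison set *ddm1*-F1 against the *ddm1* parent whose accession expresses the gene in WT, which the choice did not use. Of the 20 genes silent in WT-C24, *ddm1*-F1 was above *ddm1*-Col in 2 (AT4G16870 and AT4G04410, the genes low in *ddm1*-Col) and below in 1 (AT4G20480, log2 difference -0.82 ± 0.12, adjusted p = 0.00573), where 1.22% and 0.873% of all tested genes were. With the block the counts were 2 and 6, where 8.60% and 10.6% of all tested genes were called. AT4G16870 was higher by 2.01 ± 0.25 (adjusted p = 0.00251). Of the 31 genes silent in WT-Col, *ddm1*-F1 was above *ddm1*-C24 in 1 (AT3G44215) and below in 3 (log2 differences of AT4G29200 -1.15 ± 0.22, AT1G47950 -1.07 ± 0.26 and AT5G39770 -0.87 ± 0.19). These were 3.23% and 9.68% of the 31, where 6.34% and 8.59% of all tested genes were called, so the share below was near that of all genes. With the block 3 were above and 11 below, where 17.6% and 29.2% of all tested genes were called, and with *ddm1*-C24 replicate 2 placed in block 3 the counts were again 3 and 11, where 20.9% and 25% of all tested genes were called. With *ddm1*-C24 replicates 2 and 3 averaged, 1 was above and 2 were below, and AT1G47950 did not pass.

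In the accession that expresses the genes, *ddm1* was also set against WT. Of the 20 genes silent in WT-C24, 0 rose and 2 fell in *ddm1*-Col against WT-Col (AT4G16870 and AT4G04410). Of all tested genes 7.82% rose and 0.224% fell. The choice required WT-Col at or over 2 RPM, which favours falls from it. The share that fell (10% of the 20) is therefore a description, and no excess over all genes is read from it. Under an unadjusted p of 0.05 were 4 of the 20. With the block 2 rose (*QQS* and *SADHU1-1*) and 5 fell, where 10% and 8.69% of all tested genes were called. Of the 31 genes silent in WT-Col, 3 rose (AT2G05640, AT2G05935 and AT5G39770) and 0 fell in *ddm1*-C24 against WT-C24. The 3 were 9.68% of the 31, near the 8.61% of all tested genes that rose, while 1.13% of all tested genes fell. With the block 6 rose, where 9.97% of all tested genes did. With *ddm1*-C24 replicate 2 placed in block 3, 10 rose and 2 fell (AT3G44035 and AT4G04402), where 13.9% of all tested genes rose and 11.1% fell. With *ddm1*-C24 replicates 2 and 3 averaged as 1 sample only AT2G05935 rose. WT-Col and WT-C24 took part in the choice of the genes, so these comparisons are not wholly independent of it.

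The crosses were also compared one at a time. *ddm1*-ColxC24 against WT-ColxC24 gave 2 of 20 and 13 of 31 genes higher, where 8.06% of all tested genes were, and 11 and 26 with the block (11.2%). *ddm1*-C24xCol against WT-C24xCol gave 1 of 20 and 10 of 31 higher, where 7.89% of all tested genes were, and 7 and 22 with the block (9.21%). Without the block, the counts among the 20 (10% and 5%) were near the shares of all tested genes. Rescaling by median-ratio factors gave 4 and 2 of the 20 in the crosses, and leaving out 1 library 1 to 2 and 0 to 1. Shares of all tested genes are not given for these settings. The counts of these 3-against-3 comparisons moved with single libraries: for the first cross 5 to 7 of 31 passed without replicate 2 or 3 of *ddm1*-ColxC24 or replicate 1 or 2 of WT-ColxC24, and for the second 4 to 6 of 31 without replicate 2 or 3 of *ddm1*-C24xCol or replicate 2 of WT-C24xCol. A difference of the *ddm1* effect between the crosses passed in 0 of 51 genes and in 0% of all tested genes (limma, 1 of 51 under an unadjusted p of 0.05).

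WT-C24xCol against WT-ColxC24 passed in 0 of 51 genes (0 under an unadjusted p of 0.05), where 0.0224% of all tested genes were called. *ddm1*-C24xCol against *ddm1*-ColxC24 passed in 0 of 51 (1 under an unadjusted p of 0.05), where 0% of all tested genes were called. With the block 3 of 51 passed in the *ddm1* hybrids, where 0.932% of all tested genes were called: AT1G13609 (0.94 ± 0.17, adjusted p = 0.0336) and AT5G15360 (0.43 ± 0.07, adjusted p = 0.0175) were higher with the C24 mother, and AT2G05642 (-0.53 ± 0.07, adjusted p = 0.00721) lower.

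For 18 genes of the silencing machinery (methyltransferases, their partners, linker histones and demethylases), counts are given beside the shares of all tested genes. None of the 18 passed in *ddm1*-F1 against WT-F1 without the block, where 9.23% of all tested genes rose and 1.18% fell. With the block 1 rose and 5 fell, where 13.5% of all tested genes rose and 11.5% fell. In *ddm1*-Col against WT-Col only *DDM1* fell without the block, and with it *ROS1*, *H1.1* and *H1.2* fell as well. Of all tested genes 0.224% fell there without the block and 8.69% with it. In *ddm1*-C24 against WT-C24 only *ROS1*, which encodes a DNA glycosylase that removes methylated cytosine, fell, in both fits: 2.8, 2.5 and 2.8 RPM in *ddm1*-C24, against 80.0, 51.9 and 68.0 RPM in WT-C24 (log2 difference -4.37 ± 0.21, adjusted p = 4.37e-05). Of all tested genes 8.61% rose and 1.13% fell in *ddm1*-C24 against WT-C24 without the block, and 542 of 22329 fell with it. *ROS1* averaged 55.7 RPM in *ddm1*-Col and 82.8 RPM in WT-Col. In the hybrids it averaged 59.4 RPM in *ddm1*-ColxC24 and 55.5 RPM in *ddm1*-C24xCol, against 71.8 RPM in WT-ColxC24 and 68.6 RPM in WT-C24xCol. Among the *ddm1* genotypes, *ddm1*-C24 alone was thus low in *ROS1*, and the part of this in the release there was not tested.

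Read placement limits part of these values. Near-identical copies (at least 98% identity over at least 90 bases) were found elsewhere in TAIR10.1 for 13 of the 51 genes, 3 silent in WT-C24 and 10 silent in WT-Col, and covered at least 50% of the length in 8. These 8 were AT1G61510, AT3G41979, AT3G60950, AT4G22450, AT5G33207, AT5G33270, AT5G35575 and AT5G59620. Another annotated gene overlapped 9 of the 51, 5 on the opposite strand. The values of these genes are uncertain in the gene they belong to. The authors' notes name the TAIR10 build, which is of Col, for the reads of both accessions. C24 reads that differ from it may be placed less often. Ratios between the accessions, and of the hybrids to a parent, carry this limit, and its part was not tested.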

How the data were processed

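RNA of 24 libraries of whole seedlings was used, and 4 bisulfite samples were not analysed here. The authors deposited 1 table of RPM values (a gene's reads scaled to a common library total) for 28437 genes, and their notes name TopHat, HTSeq and the TAIR10 build. Versions and the strand setting are not given in the sources used here. RPM columns summed to between 999819.3 and 1000187.1, all values were multiples of 0.1, and whole reads could not be recovered, so the depth of each library is unknown and no counting interval is given. The table held 0 columns of other samples.

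Tests covered the 22329 genes that reached 1 RPM in 3 or more libraries (6108 were left out), taken as log2(RPM + 0.5) with limma 3.58.1 in R 4.3.3 (trended variance, two-sided), each comparison on its own libraries, with Benjamini-Hochberg adjustment over all tested genes and a threshold of 0.05. Differences on this scale understate the change of low genes. The code was tested on simulated data. Same-numbered libraries deviated together (mean r = 0.757, lowest 0.159 over 84 pairs), so the numbers were taken to pair the samples. A fit with the number as a block was run beside each test. Each deviation was taken from its genotype's mean. This largely sets the negative mean over the 168 other pairs (-0.36), which adds no support. The pairing comes from the data, since the labels give only the number, and *ddm1*-C24 replicate 2 was closer to the replicates 3 (mean r = 0.659) than to the replicates 2 (0.298) of the other genotypes.

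The members and gene lists were chosen with earlier results of these data known. Genes described with values were, per direction, the 8 protein-coding and 4 other genes highest in the released parent, the 3 largest and 3 smallest hybrid differences, those differing between reciprocal hybrids, those nearest the limits and neighbours within 5 genes; further genes were chosen after their values were seen. Annotation, neighbours, the 200-base windows and copies (BLAST, at least 98% identity over at least 90 bases) came from TAIR10.1, in which 28331 genes were found by locus. Alternatives were other pseudocounts (0.1 and 1), no filter, rescaling by median-ratio factors (0.855 to 1.19), the block, 4 hybrid groups in one model, other limits, each library left out, and, chosen after seeing the data, the block with rescaling, the mean of *ddm1*-C24 replicates 2 and 3, and the block with *ddm1*-C24 replicate 2 placed in block 3.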

Additional observations from a re-analysis of the deposited data

How the results depend on the processing

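The hybrid comparison of *ddm1*-F1 with WT-F1 gave 8 called of the 20 genes silent in WT-C24 and 16 to 18 of the 31 silent in WT-Col with any 1 library left out. With the replicate block, 1 gene silent in WT-C24 was lower and 28 silent in WT-Col were higher, and with the block and rescaling together 1 and 29. For *ddm1*-ColxC24 against WT-ColxC24 the block gave 11 and 26 genes higher and, with rescaling, 11 and 26. For *ddm1*-C24xCol against WT-C24xCol it gave 7 and 22 and, with rescaling, 8 and 24. Rescaling alone gave 4 and 2 genes silent in WT-C24 in these crosses, and no filter gave 1 and 0. With 1 library left out, the first cross gave 1 to 2 and 5 to 14 genes, and the second 0 to 1 and 4 to 9. The genes silent in WT-C24 numbered 1 in the first cross without any 1 of the *ddm1*-ColxC24 replicates or replicate 2 or 3 of WT-ColxC24, and 0 in the second without replicate 2 or 3 of *ddm1*-C24xCol or replicate 2 of WT-C24xCol. Between the *ddm1* reciprocal hybrids 3 genes passed with the block, and 3 with rescaling too. Shares of all tested genes are not given for rescaling, no filter, averaged replicates or left-out libraries, so these counts show only how the calls moved.

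Of the genes silent in WT-C24, 2 were higher and 5 lower in *ddm1*-Col against WT-Col with the block, and 3 and 4 with rescaling too. With 1 library left out 0 to 1 were higher (1 without *ddm1*-Col replicate 1). Of the genes silent in WT-Col, 6 were higher in *ddm1*-C24 against WT-C24 with the block, and 7 higher and 1 lower with rescaling too. With replicate 2 of *ddm1*-C24 placed in block 3, 10 were higher and 2 lower. With *ddm1*-C24 replicates 2 and 3 averaged 1 was higher, and with 1 library left out 1 to 3 were (1 without either of these replicates). Against *ddm1*-Col, 6 of the genes silent in WT-C24 were lower in *ddm1*-F1 with the block and 6 with rescaling too. With 1 library left out 1 to 2 of them were higher (1 without any *ddm1*-Col replicate). Against *ddm1*-C24, 3 of the genes silent in WT-Col were higher in *ddm1*-F1 and 11 lower with the block, and 4 and 8 with rescaling too. With replicate 2 of *ddm1*-C24 placed in block 3 the counts were 3 and 11. Limits of 0.2 and 4 RPM left 12 and 18 genes, and leaving a library out of the parents' means gave 19 to 22 and 29 to 33.

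With 1 library left out, 5 hybrid log2 differences that had not passed changed sign: AT3G41979 (-0.16 to 0.55), AT4G07825 (-0.052 to 0.31), AT4G04402 (-0.37 to 0.17), AT1G35612 (-0.054 to 0.082) and AT3G60950 (-0.031 to 0.39). The cause of these changes was not tested. Rescaling put the median of all tested genes in the hybrid comparison at 0.02, against -0.03 as deposited. Because depth is unknown, a gene listed at 0 cannot be given a limit.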
